A study of Mus musculus with 6 samples.

Results

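Inflammasomes are protein platforms that assemble in the cytosol of macrophages when a sensor detects microbial products or damage. A sensor such as NLRP3, NLRP1B, NLRC4 or pyrin recruits caspase-1, mostly through the adaptor ASC, and caspase-1 then matures interleukin 1 beta and interleukin 18 and cuts gasdermin D, whose fragments form pores in the cell membrane. This lytic death is called pyroptosis. In mice caspase-11, the product of Casp4, cuts gasdermin D in response to lipopolysaccharide in the cytosol, whereas caspase-8 starts apoptosis and restrains necroptosis, a death carried out by MLKL.

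Transcripts of 10 genes of this system were described: the sensor genes Nlrp3, Nlrp1b, Nlrc4 and Mefv, the adaptor gene Pycard, the caspase genes Casp1, Casp4 and Casp8, and the executor genes Gsdmd and Mlkl. They were taken by symbol from a deposited table of 23302 genes, and every symbol was found there 1 time. The RNA came from macrophages of malignant pleural effusions (MPEs), fluid that a tumor causes to collect around the lung, 10 days after intrapleural injection of MC38, a colon adenocarcinoma line of the mouse. Macrophages were pulled out with beads against F4/80, a surface protein of mouse macrophages, and the labels mention a culture of these cells for further use without saying whether RNA was taken before it. The 3 WT libraries came from C57BL/6 mice, and the 3 libraries labelled IL-10-/- from C57BL/6 mice that carry a mutated Il10 gene in all cells of the body. Both groups received the same tumor cells, and the study matched the mice for sex, weight and age. The WT mice and the IL-10-/- mice came from different suppliers, so supplier and genotype cannot be told apart. The labels do not say whether a library held 1 mouse or several, and p-values therefore measure the spread between libraries.

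Levels are FPKM, fragments counted per kilobase and scaled for library size, which can be compared between genes because they are given per length. The values of a library summed to between 885310 and 1125020, and read totals and thus depth are unknown. The targeted Il10 gene stood at 6.43 to 33.3 FPKM in WT and at 42.4 to 62.0 FPKM in libraries labelled IL-10-/-, which goes against a simple loss of transcript, so that labels alone name the groups here. The macrophage gene Adgre1, which encodes F4/80, was at 73.0 to 147 FPKM in WT and at 65.2 to 228 FPKM in libraries labelled IL-10-/-. Csf1r, the receptor gene of a macrophage growth factor, was at 141 to 179 and 196 to 216 FPKM. The 10 macrophage markers summed to 8656 to 11114 and 12008 to 14694 FPKM. Lyz2 alone held 3612 to 5460 and 6714 to 9252 FPKM of these sums. Of the 10, 8 had log2 fold changes above 0 and 2 below, and none passed the test given below. None of 10 macrophage markers was at 0 throughout. The same held for the markers of every other cell type examined, so this does not set macrophages apart. Among genes of other cells, the summed level of 13 neutrophil markers was 1740 to 2378 FPKM in WT and 429 to 770 FPKM in libraries labelled IL-10-/-. S100a8 alone held 1072 to 1750 and 213 to 540 FPKM of these sums. Of the 11 neutrophil markers tested, 5 fell and none rose at an adjusted p under 0.05 from limma, and 2 had log2 fold changes above 0. Over all genes tested 0.482% fell, 0.608% rose and 49.5% were above 0. The granule protein genes Mmp8, Ngp, Ltf and Camp gave overlapping groups. The summed level of 7 classical monocyte markers was 6132 to 7766 and 10003 to 14592 FPKM. Of these 7, Ly6c2 alone rose, beside 0.608% of all genes tested. Log2 fold changes of 6 were above 0, and Chil3 and F13a1 gave overlapping groups. The 10 T cell markers summed to 66.2 to 104 and 93.4 to 197 FPKM, and 7 B cell markers to 36.6 to 44.1 and 10.6 to 29.1 FPKM. For 5 platelet markers the sum was 2594 to 3299 and 482 to 935 FPKM. Pf4 alone held 1961 to 3052 and 466 to 875 FPKM of it, while Gp9, Itga2b and Gp1bb stood at 2.62 FPKM or lower. In such bulk RNA, fewer cells of a type and less RNA per cell cannot be told apart. The genes described here are known to be active in monocytes and, several of them, in neutrophils, and the part of cell makeup in the values below was not tested.

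The test was limma on log2(FPKM + 1), run on the 11838 genes that reached 1 FPKM in 3 or more libraries, with p-values adjusted over all of them. All 10 genes passed this filter. Fold changes are differences on this log2 scale, IL-10-/- minus WT, with a standard error (SE), and they understate the change of genes at low FPKM. Rose and fell are kept for genes at an adjusted p under 0.05.

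Casp4 rose in the libraries labelled IL-10-/-, and its neighbor Casp1 stood just short of the threshold at nearly the same fold. Mlkl and Gsdmd were also higher in each library labelled IL-10-/- than in any WT library without passing the test. The sensor genes, the adaptor gene Pycard and Casp8 gave overlapping groups. Of the 10 genes, 1 rose and none fell, and 9 had a log2 fold change above 0, with a median of 0.36. Over all genes tested 0.608% rose and 0.482% fell, 1.09% in all, and 49.5% were above 0, with a median of 0.00. The groups did not overlap in 4 of the 10 genes, all higher in the libraries labelled IL-10-/-, beside 7.8% of all genes in this direction, 7.59% in the other and 15.4% in either.

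**Figure D1:**
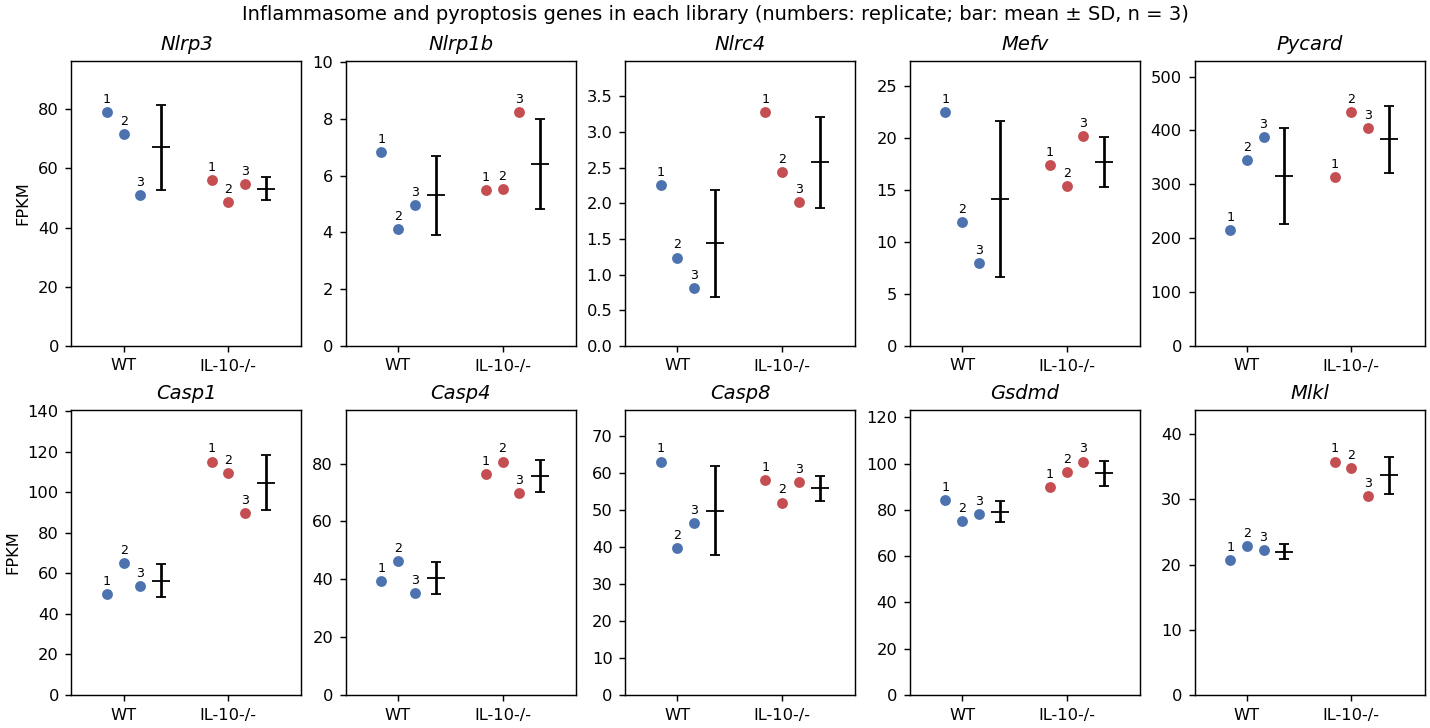
FPKM of the 10 genes in each library (vertical axes, each from 0), with WT libraries in blue, libraries labelled IL-10-/- in red, the replicate number above each point and the mean ± SD (n = 3) beside each group. The groups do not overlap for Casp1, Casp4, Gsdmd and Mlkl, while WT replicate 1 stands apart from the other WT libraries for Mefv and Pycard.

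Casp4 (ENSMUSG00000033538), the sensor of cytosolic lipopolysaccharide in mice, lies on the plus strand of chromosome 9 at 5308828 to 5336783 (GRCm38), and its principal transcript has 9 exons. It stood at 39.4, 46.3 and 35.3 FPKM in WT and at 76.3, 80.7 and 69.8 FPKM in libraries labelled IL-10-/-. The lowest of the latter lay well above the highest WT library. Means were 40.3 ± 5.57 and 75.6 ± 5.51 FPKM (SD over 3 libraries each), a ratio of 1.87 and a log2 fold change of 0.90 (SE 0.15, limma adjusted p = 0.0341). The exact two-sided permutation test gave p = 0.1, the smallest that 3 against 3 libraries allow. The call rested on all 6 libraries, since without any 1 of them the adjusted p from limma was 0.0543 to 0.177, while the log2 fold change stayed between 0.81 and 1.00. Without a filter on low values the adjusted p was 0.135.

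Casp1 (ENSMUSG00000025888), whose protein is the effector protease of the sensors described here, lies upstream of Casp4 on the same strand, from 5298517 to 5307265 with 10 exons, and 1562 bases separate the gene models. Its level was 49.9, 65.3 and 53.9 FPKM in WT and 115, 110 and 89.6 FPKM in libraries labelled IL-10-/-. Again the groups did not overlap. Means were 56.4 ± 7.97 and 105 ± 13.4 FPKM (SD over 3 libraries each), a ratio of 1.86 and a log2 fold change of 0.88 (SE 0.16), with an adjusted p of 0.0507 from limma that misses the threshold. With a filter at 5 FPKM, under which fewer genes are tested, the adjusted p was 0.0413. Within a library the ratio of Casp1 to Casp4 FPKM was 1.27, 1.41 and 1.53 in WT and 1.51, 1.36 and 1.28 in IL-10-/- labelled libraries, and these ranges overlapped.

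Casp12, the next caspase gene on the plus strand of chromosome 9, begins 8646 bases after the end of Casp4 (5345430 to 5373032). It was at 1.27, 2.17 and 1.68 FPKM in WT and at 6.09, 5.34 and 4.52 FPKM in libraries labelled IL-10-/-. It rose, with a log2 fold change of 1.23 (SE 0.19, limma adjusted p = 0.0270), and its low level makes this an understated change. Its adjusted p stayed under 0.05 in 1 of 6 fits with 1 library left out and was 0.187 without a filter on low values. The 3 caspase genes thus stood higher side by side, and whether their reads were counted by strand is not known here.

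The promoter windows of these neighbors are shown because the genes stood higher together and lie in 1 stretch. The window of Gbp5 stands beside them as that of a gene with a larger log2 fold change. Each runs from 250 bases before to 50 bases after the RefSeq start on GRCm38.p6, plus strand, at chr9:5298267-5298566 for Casp1, chr9:5308599-5308898 for Casp4, chr9:5345226-5345525 for Casp12 and chr3:142496684-142496983 for Gbp5. Capitals mark matches on either strand to a gamma interferon activation site (GAS, TTCNNNGAA), to an interferon regulatory factor site (IRF, GAAA, any 2 bases, GAAA) or to an NF-kB site (GGGAA, any 3 bases, CC), and no matches overlap in these windows.
Casp1: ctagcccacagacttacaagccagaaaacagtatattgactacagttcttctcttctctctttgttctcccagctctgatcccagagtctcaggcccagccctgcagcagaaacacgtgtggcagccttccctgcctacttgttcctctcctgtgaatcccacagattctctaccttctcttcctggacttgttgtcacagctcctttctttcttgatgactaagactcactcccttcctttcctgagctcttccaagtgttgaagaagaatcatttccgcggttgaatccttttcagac
Casp4: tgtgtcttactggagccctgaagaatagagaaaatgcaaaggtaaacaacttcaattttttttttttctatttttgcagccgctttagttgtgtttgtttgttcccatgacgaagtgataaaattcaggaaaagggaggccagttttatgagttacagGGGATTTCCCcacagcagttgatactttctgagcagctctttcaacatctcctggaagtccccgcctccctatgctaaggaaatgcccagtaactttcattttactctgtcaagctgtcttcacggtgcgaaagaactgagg
Casp12: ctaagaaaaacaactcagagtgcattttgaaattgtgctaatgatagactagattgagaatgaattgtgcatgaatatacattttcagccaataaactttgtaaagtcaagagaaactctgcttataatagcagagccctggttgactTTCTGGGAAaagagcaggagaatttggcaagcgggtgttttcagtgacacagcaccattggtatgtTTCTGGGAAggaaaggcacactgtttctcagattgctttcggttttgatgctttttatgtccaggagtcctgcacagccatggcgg
Gbp5: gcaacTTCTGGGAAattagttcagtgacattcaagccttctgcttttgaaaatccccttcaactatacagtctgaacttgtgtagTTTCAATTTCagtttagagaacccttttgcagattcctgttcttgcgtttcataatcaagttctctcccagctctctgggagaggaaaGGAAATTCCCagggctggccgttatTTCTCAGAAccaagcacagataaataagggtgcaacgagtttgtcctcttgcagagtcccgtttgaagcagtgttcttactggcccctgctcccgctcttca

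Of the 10 genes, 9 had a RefSeq window in the table used, in 12 windows, and Gsdmd had none. Over all 32851 windows of the table, 8.3% held a GAS match and 3.44% an IRF match. The 12 windows held none of either, which at so few windows is near these shares. The NF-kB letters were found in Casp4, 92 bases before the start shown, and in 1 window of Nlrp3, 186 bases before the start, beside 5.78% of all windows. The Casp1 window held no match at all. Casp12 held GAS matches that begin 102 and 36 bases before the start, and Gbp5 held 2 GAS matches, 1 IRF match and 1 NF-kB match. A match describes letters in a window and is not a measured binding site.

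The executor genes had smaller log2 fold changes than Casp1 and Casp4. Gsdmd (ENSMUSG00000022575), the pore protein gene, lies on chromosome 15 (75862339 to 75867404, plus strand). It was at 84.2, 75.2 and 78.4 FPKM in WT and at 90.0, 96.6 and 101 FPKM in libraries labelled IL-10-/-. These groups did not overlap, but the gap between them was small beside the level, with means of 79.3 ± 4.57 and 95.8 ± 5.52 FPKM (SD, n = 3 each). The log2 fold change was 0.27 (SE 0.13, limma adjusted p = 0.509). Per unit of Casp4, Gsdmd transcript was at 2.14, 1.62 and 2.22 in the WT libraries and at 1.18, 1.20 and 1.45 in those labelled IL-10-/-.

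Mlkl (ENSMUSG00000012519), which encodes the pseudokinase that breaks the membrane in necroptosis, lies on the minus strand of chromosome 8 (111311797 to 111338177). It was at 20.8, 22.9 and 22.3 FPKM in WT and at 35.8, 34.8 and 30.5 FPKM in libraries labelled IL-10-/-. The WT values lay close together, and all values of the other group were higher. The log2 fold change was 0.59 (SE 0.13), short of the threshold at an adjusted p of 0.0966 from limma. With limma's array weights, which give noisy libraries less influence, the adjusted p was 0.0211.

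Casp8 (ENSMUSG00000026029), the initiator caspase of death receptor signaling, lies on chromosome 1 (58795374 to 58847503, plus strand). Il10 lies elsewhere on this chromosome, at 131019845 to 131024974. Casp8 was at 63.2, 39.8 and 46.6 FPKM in WT and at 58.2, 52.1 and 57.8 FPKM in libraries labelled IL-10-/-. The highest of the 6 values was WT replicate 1, and the groups overlapped (log2 fold change 0.19, SE 0.18, limma adjusted p = 0.821). Leaving out WT replicate 1 gave a log2 fold change of 0.37 (limma adjusted p = 0.276).

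Pycard (ENSMUSG00000030793), the gene of the adaptor ASC, was the most abundant of the 10 genes in every library. It lies on the minus strand of chromosome 7 (127989708 to 127993867). Its level was 215, 344 and 387 FPKM in WT and 314, 433 and 404 FPKM in libraries labelled IL-10-/-. WT replicate 1 was the lowest library and the groups overlapped. The log2 fold change was 0.31 (SE 0.24, limma adjusted p = 0.759), and it was 0.06 without WT replicate 1.

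Among the sensors, Nlrp3 was the most abundant and had the single log2 fold change below 0 of the 10 genes. Nlrp3 (ENSMUSG00000032691), which answers to ion fluxes and membrane damage once NF-kB signaling has induced it, lies on chromosome 11 (59541568 to 59566956, plus strand). It was at 78.9, 71.5 and 51.1 FPKM in WT and at 55.9, 48.6 and 54.8 FPKM in libraries labelled IL-10-/-. WT replicate 3 lay within the range of the other group, so the groups overlapped. The log2 fold change was -0.31 (SE 0.18, limma adjusted p = 0.643) and ran from -0.49 to -0.19 without any 1 library.

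Mefv (ENSMUSG00000022534), the gene of pyrin, which detects the inactivation of RhoA, varied widely among the WT libraries. It lies on the minus strand of chromosome 16 (3707215 to 3718124). Its level was 22.5, 11.9 and 8.01 FPKM in WT and 17.4, 15.4 and 20.1 FPKM in libraries labelled IL-10-/-. WT replicate 1 held the highest of the 6 values, above all libraries labelled IL-10-/-, and the other WT libraries held the lowest. The log2 fold change was 0.41 (SE 0.32, limma adjusted p = 0.755), it was 0.78 without WT replicate 1, and it was 0.09 without WT replicate 3.

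Nlrp1b and Nlrc4 were the least abundant of the 10 genes. Nlrp1b (ENSMUSG00000070390), a sensor that is set off when a protease cuts it, lies on the minus strand of chromosome 11 (71153102 to 71230733) beside its closely related copies Nlrp1a and Nlrp1c-ps, so that the split of reads between them is uncertain. It was at 6.83, 4.12 and 4.95 FPKM in WT and at 5.48, 5.52 and 8.22 FPKM in libraries labelled IL-10-/-, and the groups overlapped (log2 fold change 0.24, SE 0.22, limma adjusted p = 0.809). Nlrc4 (ENSMUSG00000039193), which is activated by NAIP proteins bound to flagellin or bacterial secretion systems, lies on the minus strand of chromosome 17 (74426295 to 74459108). It was at 2.26, 1.24 and 0.810 FPKM in WT and at 3.28, 2.43 and 2.02 FPKM in libraries labelled IL-10-/-. The lowest of the latter was under WT replicate 1 alone (log2 fold change 0.58, SE 0.25, limma adjusted p = 0.471). At this level counting error is largest, and its size cannot be given without read totals.

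The order of the levels differed between the groups around Nlrp3. By mean FPKM the WT libraries ran from Pycard (316 ± 89.7) through Gsdmd, Nlrp3 (67.2 ± 14.4), Casp1, Casp8, Casp4, Mlkl, Mefv and Nlrp1b to Nlrc4 (1.44 ± 0.746). From Gsdmd to Casp4 every pair of neighbors in this order overlapped, and so did Mlkl and Mefv. In the libraries labelled IL-10-/- the order was Pycard (384 ± 62.0), Casp1, Gsdmd, Casp4, Casp8 (56.0 ± 3.39), Nlrp3 (53.1 ± 3.93), Mlkl, Mefv, Nlrp1b and Nlrc4 (2.57 ± 0.642; SD, n = 3 for each mean). There the pairs that overlapped were Casp1 with Gsdmd and Casp8 with Nlrp3. The ratio of Casp1 to Nlrp3 FPKM within a library was 0.632, 0.913 and 1.06 in WT and 2.06, 2.25 and 1.63 in the IL-10-/- labelled libraries. Log2 fold changes of Casp1 and Nlrp3 were of opposite sign, so this ratio is no result apart from theirs. The ratio of Casp1 to Pycard was 0.232, 0.190 and 0.139 in WT and 0.366, 0.253 and 0.222 in the others, with overlap.

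The share of each sensor in the summed FPKM of the sensors was compared, since a share within a library does not depend on how the library was scaled. Aim2, the gene of the sensor of cytosolic DNA, was added as the remaining classical sensor. The sum of the 5 genes was 139, 119 and 93.5 FPKM in WT and 115, 110 and 118 FPKM in libraries labelled IL-10-/-. Nlrp3 made up 56.8%, 60.0% and 54.7% of it in the WT libraries and 48.7%, 44.3% and 46.4% in the others, and the groups did not overlap. The means were 57.2 ± 2.70% and 46.5 ± 2.17% (SD, n = 3 each), a difference of -10.7 percentage points. The exact two-sided permutation test gave p = 0.1, the smallest possible, and 0.25 after adjustment over the 5 sensors. Leaving out any 1 library moved this difference to between -11.9 and -9.24 percentage points, and without Aim2 in the sum it was -10.3 percentage points. The share of Nlrc4 was 1.18 ± 0.399% and 2.26 ± 0.574%, without overlap (SD, n = 3 each, exact permutation p = 0.1, adjusted 0.25). Shares of a sum depend on each other, since a lower share of Nlrp3 leaves more for the other sensors. The FPKM of Nlrc4 itself overlapped between the groups, at 0.810 to 2.26 and 2.02 to 3.28. The shares of Nlrp1b, Mefv and Aim2 overlapped, with Mefv at 11.6 ± 4.04% and 15.4 ± 1.54% and Aim2 at 25.5 ± 5.04% and 30.2 ± 3.61%. Aim2 itself had 28.5 to 30.3 FPKM in WT and 32.7 to 37.7 FPKM in libraries labelled IL-10-/- (log2 fold change 0.23, limma adjusted p = 0.618).

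**Figure D2:**
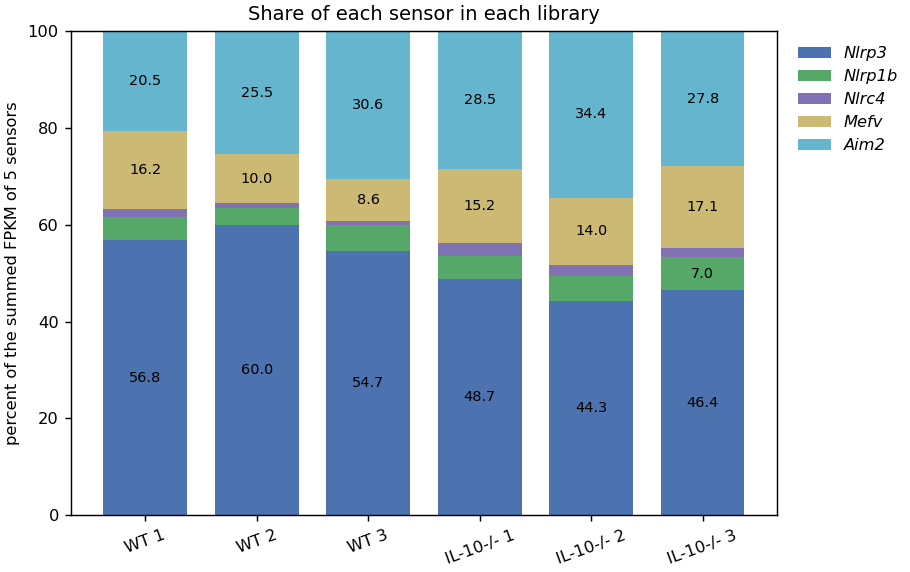
Percent of the summed FPKM of 5 sensor genes held by each sensor (vertical axis, stacked to 100) in each of the 6 libraries (horizontal axis), with shares above 6% printed in the bars. Nlrp3 holds 54.7% to 60.0% in the WT libraries and 44.3% to 48.7% in those labelled IL-10-/-.

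Other genes of the pathway were described by lists. Of 9 tested further cytosolic sensors, 1 rose and none fell, beside 0.608% and 0.482% of all genes tested. The log2 fold changes of these sensors had a median of 0.23. The gene that rose was Nod1, a receptor for bacterial peptidoglycan fragments that signals to NF-kB rather than to caspase-1. It was at 11.7, 8.43 and 7.60 FPKM in WT and at 21.0, 18.4 and 19.0 FPKM in libraries labelled IL-10-/- (log2 fold change 1.02, SE 0.17, limma adjusted p = 0.0403), and its adjusted p stayed under 0.05 in 1 of the 6 fits that left out a library. It was 0.187 without a filter on low values. Nlrp12, a sensor gene of neutrophils and monocytes, was at 1.39 to 2.14 and at 0.118 to 0.476 FPKM without passing the test (log2 fold change -1.03, limma adjusted p = 0.0768). Of the neutrophil markers, 5 of 11 tested fell in libraries labelled IL-10-/-, beside 0.482% of all genes tested. Among them were S100a8 and Retnlg, by 1.99 and 1.71 on the log2 scale. Mmp9 and Ly6g were lower without overlap or passing the test (limma adjusted p = 0.0513 and 0.149). Ltf and Camp had log2 fold changes of 0.30 and 0.27 without passing the test. Their mean FPKM was lower, at 4.09 beside 5.55 in WT and at 3.09 beside 6.29. WT replicate 2 held 14.2 and 18.0 FPKM, and the other WT libraries 1.76 FPKM or less. The part of neutrophil RNA in the Nlrp12 value was not tested.

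The GTPase genes whose proteins open bacterial vacuoles or coat bacteria and so bring lipopolysaccharide to caspase-11 all rose, 5 of 5 tested. Over all genes tested 0.608% rose. The median log2 fold change of these GTPase genes, 1.45, was the highest of the lists described here. All lists were chosen with earlier results of these data known, so neither the count nor this rank is a test. Gbp5 was at 17.7, 19.3 and 13.1 FPKM in WT and at 58.1, 50.8 and 52.4 FPKM in libraries labelled IL-10-/- (log2 fold change 1.65, SE 0.17, limma adjusted p = 0.00487). It kept an adjusted p under 0.05 without any 1 library. Gbp3 had a log2 fold change of 1.68, Gbp2 of 1.45, Gm12250, also known as Irgb10, of 1.30 and Gbp7 of 1.10. With 1 library left out, these stayed under 0.05 in 5, 2, 2 and 1 of 6 fits. Without a filter on low values the call of Gbp5 alone was kept (limma adjusted p = 0.0480), and the other 4 were at 0.106 to 0.187. Guanylate-binding protein genes have near-identical copies, and the split of reads among them is uncertain. Of the 6 promoter windows of these 5 genes, 5 held an IRF match and 3 a GAS match, beside 3.44% and 8.3% of all windows. The remaining window, 1 of Gbp3, held neither. These genes were chosen with earlier results of these data known, so the match counts are no test either.

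Lists that control or accompany inflammasome activity held no gene that passed the test. Of 8 NLRP3 activation factors none rose or fell (median log2 fold change 0.21). Panx1, a channel gene, was at 4.44 to 5.33 FPKM in WT and at 6.26 to 8.07 FPKM in the others (log2 fold change 0.50, limma adjusted p = 0.251). Txnip, a thioredoxin-binding protein gene, was at 200 to 218 and 112 to 171 FPKM (log2 fold change -0.54, limma adjusted p = 0.288). Of 9 inflammasome regulators none passed (median 0.04), with Trim30a, an interferon-induced gene, at a log2 fold change of 0.55 (limma adjusted p = 0.236) and Serpinb1a, a protease inhibitor gene, at 0.47 (limma adjusted p = 0.853). The latter was -0.022 when IL-10-/- replicate 2 was left out.

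Of 11 partners of caspase-8 and necroptosis none passed, and their log2 fold changes had a median of 0.03. Zbp1, a sensor of Z-form nucleic acids that can engage RIPK3 and so MLKL, was at 309, 425 and 445 FPKM in WT and at 594, 818 and 761 FPKM in libraries labelled IL-10-/- (log2 fold change 0.89, SE 0.20, limma adjusted p = 0.109). The groups did not overlap. Ripk1, a kinase gene upstream of caspase-8, had a log2 fold change of 0.29 (limma adjusted p = 0.586).

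Of 8 tested genes of membrane rupture and repair none passed, and the median was -0.03. Ninj1, whose protein ruptures the membrane of dying cells after the pores have formed, was at 360, 357 and 362 FPKM in WT and at 270, 252 and 273 FPKM in libraries labelled IL-10-/-. Its WT values were nearly equal and the groups did not overlap (log2 fold change -0.44, SE 0.13, limma adjusted p = 0.217). Dfna5, the older symbol of the gasdermin E gene, was at 1.54 to 2.95 FPKM over the 6 libraries (log2 fold change -0.24, limma adjusted p = 0.768).

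**Figure D3:**
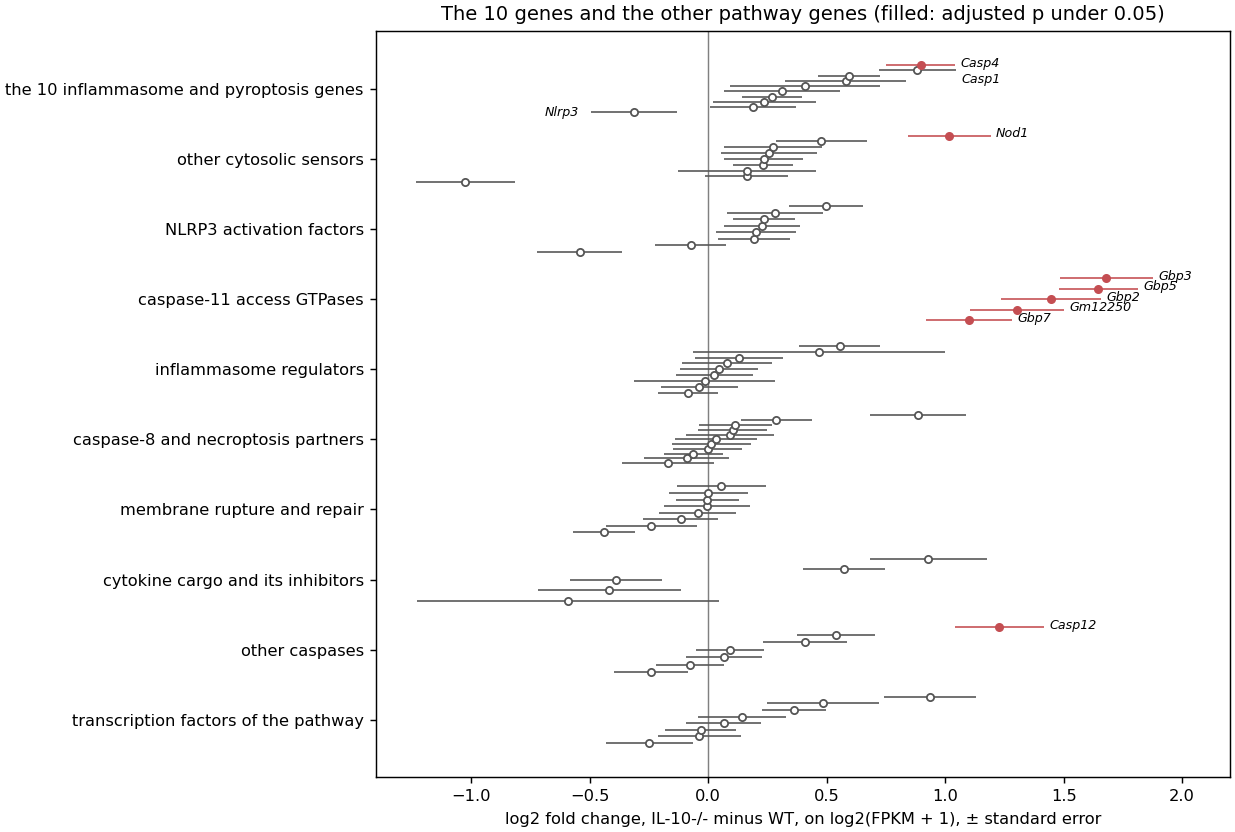
Log2 fold change, IL-10-/- minus WT, on log2(FPKM + 1) with its standard error (horizontal axis) for the tested genes of each list (rows), filled where the adjusted p is under 0.05. Casp4, Nod1, Casp12 and all 5 caspase-11 access GTPases are filled, and Nlrp3 is the single one of the 10 genes below 0.

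The cargo genes of inflammasomes lay on both sides of 0. Of 5 genes of interleukins and their inhibitors none passed the test (median log2 fold change -0.39). Il18 was at 19.1 to 29.2 FPKM in WT and at 35.7 to 38.7 FPKM in the others (log2 fold change 0.57, limma adjusted p = 0.225), and Il18bp, the gene of its soluble inhibitor, was at 36.3 to 65.7 and 76.1 to 121 FPKM (log2 fold change 0.93, limma adjusted p = 0.163). Il1b, named after its values were seen, was at 429 to 1011 and 399 to 508 FPKM with overlapping groups. Of 6 other caspase genes and Apaf1, whose protein activates caspase-9, Casp12 rose and none fell (median 0.09). Over all genes tested 0.608% rose and 0.482% fell.

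Transcription factor genes of the pathway and genes induced by interferon were given as context. Of 8 transcription factor genes none passed (median log2 fold change 0.10). Irf8, a myeloid factor known to drive Naip and Nlrc4 in mice, had a log2 fold change of 0.36 (limma adjusted p = 0.365). Of 14 interferon-induced genes, 5 rose and none fell, beside 0.608% and 0.482% of all genes tested. Those that rose were Iigp1 (log2 fold change 2.55), Cmpk2 (1.49), Usp18 (1.33), Mx1 (1.29) and Ifit1 (1.26). The median over the 14 was 1.26. Of these 5, Iigp1 and Cmpk2 kept an adjusted p under 0.05 without any 1 library, while Usp18 and Ifit1 kept it in 1 and Mx1 in 0 of the 6 fits. Without a filter on low values Cmpk2 alone of the 5 passed (limma adjusted p = 0.0189), and the others were at 0.108 to 0.237. Whether the values of the 10 genes follow those of the interferon-induced genes was not tested.

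**Figure D4:**
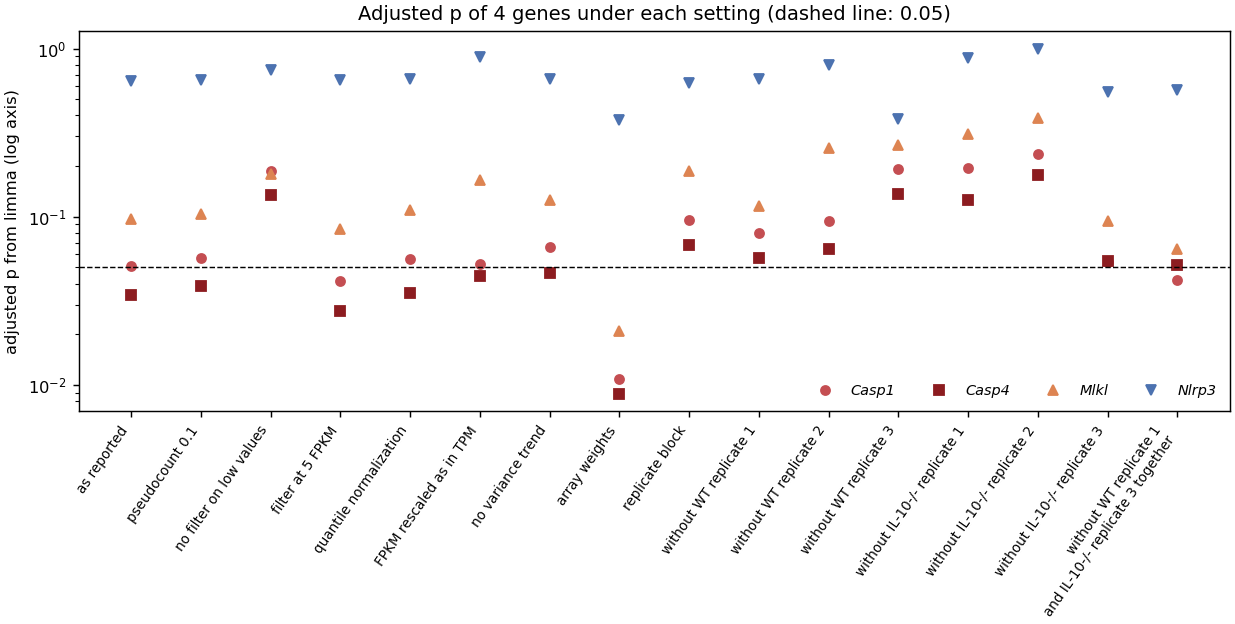
Adjusted p from limma (vertical log axis) of Casp1, Casp4, Mlkl and Nlrp3 under the reported fit and 15 other settings (horizontal axis), with a dashed line at 0.05. Casp4 lies under the line as reported (0.0341) and above it without any 1 library (0.0543 to 0.177), and Nlrp3 stays at 0.377 or higher.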

How the data were processed

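Poly(A) RNA of macrophages from MPEs of 3 WT and 3 IL-10-/- samples was made into NEBNext Ultra libraries and read from both ends. The authors deposited 1 table with an FPKM value per gene and library for 23302 genes. The submitters' processing notes name GRCm38, while aligner, counter, annotation and strand were not given in the sources used here. Beside FPKM, the table holds the authors' log2 fold changes, p-values, q-values and marks, which were not used. Columns were matched to samples by the library codes of the titles.

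All results were computed from the deposited FPKM with limma 3.58.1 in R 4.3.3, as a linear model of group with an intensity trend on log2(FPKM + 1), with two-sided p-values adjusted by Benjamini-Hochberg over 11838 genes at 1 FPKM or more in at least 3 libraries. The code was tested on simulated data. Single shares were compared with exact permutation tests. Read totals were not used here, so precision comes from the spread between libraries alone. The 10 genes and all lists were chosen with earlier results of these data known. Named genes were the 10 genes, and from each list every gene at an adjusted p under 0.05 and the 2 with the smallest p, together with Il10, Aim2 and a few markers. A few genes taken by this rule are not reported here. Symbols Gsdme and Irgb10 were measured under Dfna5 and Gm12250, and Gsdma2 and Gsdma3 were not analysed here. Strand and exons came from GENCODE M21, and promoters from RefSeq GRCm38.p6. Alternatives were other pseudocounts, filters, scalings, variance settings, a replicate block and each library left out. Figures were drawn with matplotlib 3.10.9.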

Additional observations from a re-analysis of the deposited data

How the results depend on the processing

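The direction of the log2 fold change of all 10 genes was kept in each of 14 alternatives in which it was tested (Nlrc4 was not tested with a filter at 5 FPKM). The number of the 10 genes that rose was 1 as reported, 0 without a filter on low values, 2 with a filter at 5 FPKM (Casp1 and Casp4), 3 with array weights (with Mlkl), and 0 without any 1 library. It was 1 with the other settings, the replicate block apart, and none of the 10 fell in any setting. The counts over all genes, 72 higher and 57 lower as reported, were 22 and 10 without a filter, where all 23302 genes are tested, and 248 and 234 with array weights. They ranged from 26 to 78 higher and from 14 to 62 lower without 1 library. With both WT replicate 1 and IL-10-/- replicate 3 left out, a setting chosen after seeing the data, they were 152 and 129, and of the 10 genes Casp1 was higher (adjusted p = 0.0420 from limma) while Casp4 was at 0.0520.

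The replicate numbers are not said to mark shared animals or days, and with the replicate block 36 genes were higher, 25 lower and 0 of the 10 genes were called, with Casp4 at an adjusted p of 0.0681 from limma. With this block the calls of Gbp2 (0.0572), Gbp7 (0.0675), Nod1 (0.0722), Casp12 (0.0853), Ifit1 (0.0897), Usp18 (0.0970) and Mx1 (0.120) were lost too, while Gbp3, Gbp5, Gm12250, Iigp1 and Cmpk2 stayed under 0.05. Nod1 was also at 0.0733 with FPKM rescaled as in TPM, and Usp18 at 0.0543 with no variance trend. Deviations from the group means correlated at 0.0863, 0.204 and 0.0897 between libraries of the same number, and each library correlated best with its own number. Deviations within a group sum to 0, so these correlations depend on each other. Whether the numbers mark pairs is not given by the design and was not tested. With 1 library left out, the log2 fold change of Serpinb1a ran from -0.022 (without IL-10-/- replicate 2) to 0.97 (without IL-10-/- replicate 3), and the cause was not tested. Depth is unknown, so that the counting error of genes at low FPKM such as Nlrc4 and Nlrp1b could not be given.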

Other observations

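The summed level of 7 genes of macrophages that reside in serous cavities was 410 FPKM in WT replicate 1 and 340 FPKM in IL-10-/- replicate 3, the lowest value of each group, and reached 1505 and 1968 FPKM in the groups' highest libraries. Their part in the values of the 10 genes was not tested. Without both libraries, a setting chosen after seeing the data, the log2 fold change was 0.69 for Mefv, 0.93 for Nlrc4, 0.35 for Casp8 and 0.01 for Pycard, none of which passed the test, with adjusted p-values from limma of 0.154, 0.101, 0.245 and 0.972. That of Nlrp3 was -0.21 and that of Mlkl 0.62 (adjusted p = 0.569 and 0.0641 from limma).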
